A study of Homo sapiens with 18 samples.

Results

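Human mitochondrial DNA (mtDNA) carries 37 genes, and its transcripts were taken here as the 37 rows, of 60504 in the deposited table, whose Ensembl identifier has a symbol beginning MT-. They comprised 13 mRNAs, 2 rRNAs and 22 tRNAs, and all 37 lie on chromosome M in GENCODE release 29. They were measured in A375 cells, an established human melanoma line, with and without IMD-0354, a compound used to block IKKβ, a kinase of NF-κB signalling. RNA was read by QuantSeq, a method that sequences the 3′ ends of polyadenylated RNA, in 18 libraries that form 6 groups of 3. At 24 h the cells were untreated or had received 0.32, 0.63 or 1.25 µM IMD-0354, and at 48 h they had received 0.63 µM or were untreated. All groups shared the line, its high-glucose medium with serum and antibiotics, and plating on the day before dosing, and no vehicle is named in the labels for untreated cells. The labels do not say whether the 3 libraries of each group were separate cultures, and the p-values therefore reflect the spread among these libraries alone, which may be technical.

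Both strands of mtDNA are transcribed into long precursors that span many genes, by the polymerase POLRMT with the factors TFAM and TFB2M. The tRNAs sit between most of the other genes, and their excision releases the rRNAs and mRNAs, most of which then receive a short poly(A) tail. Because transcripts of unequal abundance come from the same precursor, their levels are set in large part after transcription, by processing and stability. The mRNAs encode subunits of 4 respiratory chain complexes: MT-ND1, MT-ND2, MT-ND3, MT-ND4, MT-ND4L, MT-ND5 and MT-ND6 of complex I, which oxidises NADH, MT-CYB of complex III, MT-CO1, MT-CO2 and MT-CO3 of complex IV, which reduces oxygen, and MT-ATP6 and MT-ATP8 of ATP synthase. MT-RNR1 and MT-RNR2 are the RNAs of the small and the large mitochondrial ribosomal subunit.

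The genes that the results turn on are packed end to end, and 2 pairs of them overlap, which matters for a method that reads transcript ends. MT-ND4L and MT-ND4 share 7 bases, at chrM:10760-10766, and MT-ATP8 and MT-ATP6 share 46 bases, at chrM:8527-8572. Each of these pairs is known to be carried on a joint mRNA, so that the upstream gene has no free 3′ end of its own on that RNA. How reads of a joint mRNA were divided between its 2 rows, and whether the counting used strand, is not given in the sources used here, so the split between the rows of a pair is uncertain. The junctions are shown first, with the shared bases in capitals, for MT-ND4L (chrM:10737-10766), MT-ND4 (chrM:10760-10789), MT-ATP8 (chrM:8513-8572) and MT-ATP6 (chrM:8527-8586), all on the plus strand of GRCh38 as given by GENCODE release 29.
MT-ND4L, last 30 bases: gtacataacctaaacctactccaATGCTAA
MT-ND4, first 30 bases: ATGCTAAaactaatcgtcccaacaattata
MT-ATP8, last 60 bases: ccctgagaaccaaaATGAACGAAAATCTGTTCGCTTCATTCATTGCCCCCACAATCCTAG
MT-ATP6, first 60 bases: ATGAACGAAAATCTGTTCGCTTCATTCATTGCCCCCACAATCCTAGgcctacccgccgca

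The ends of the annotated reading frames differ as well. Of the 13 mRNAs, 7 encode a complete stop codon, 1 (MT-ND1) encodes only TA of it and 5 encode only its T, with the missing bases supplied by the poly(A) tail. The ends of 4 mRNAs on which the results below turn are shown, on the same strand and build, with the encoded part of the stop codon in capitals: MT-CO1 at chrM:7416-7445, MT-CO2 at chrM:8240-8269, MT-ND3 at chrM:10375-10404 and MT-ND4 at chrM:12108-12137. MT-CO1 ends in AGA, which is a stop only in the mitochondrial code. MT-ND4 and MT-ND3 end in a bare T.
MT-CO1, last 30 bases: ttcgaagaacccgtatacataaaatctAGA
MT-CO2, last 30 bases: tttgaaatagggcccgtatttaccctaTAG
MT-ND3, last 30 bases: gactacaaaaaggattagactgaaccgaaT
MT-ND4, last 30 bases: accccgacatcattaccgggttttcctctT

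The deposited values are TPM, a measure of transcript abundance that is divided by gene length and sums to the same total in each library, so read depth is unknown and a value is a proportion of the RNA measured. In bulk RNA, fewer cells of a type and less RNA per cell cannot be told apart. Between 14647 and 17029 rows were above 0 in a library. The melanocyte lineage factors SOX10 and MITF were present at 8.29 to 34.7 TPM and 2.87 to 16.8 TPM, the pigment genes PMEL, MLANA, TYR and DCT were at most 2.37 TPM, and the keratinocyte, fibroblast, endothelial and leukocyte markers were at most 1.14 TPM apart from CD68, at 0 to 5.54 TPM. A set of 4 non-coding rows on chromosome 21 took 13.1% to 24.8% of TPM. Library 3 stood apart for the mtDNA transcripts: it had the lowest share of TPM in mtDNA mRNAs, and in mtDNA rRNAs, in 6 of 6 groups, and the fewest rows above 0 in 4 of them. For some of the results that rest on these libraries, values without them are given as well.

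The mtDNA mRNAs were abundant. Their share of all TPM was 4.54%, 3.09% and 2.30% in the untreated libraries at 24 h, 5.30%, 5.08% and 5.02% at 0.32 µM, 5.91%, 6.20% and 2.64% at 0.63 µM, and 4.72%, 4.72% and 2.94% at 1.25 µM. All 3 libraries at 0.32 µM lay above all 3 untreated libraries, whereas at 0.63 and 1.25 µM libraries 1 and 2 lay above the untreated range and library 3 inside it. The means were 3.31% ± 1.13 in untreated cells, 5.13% ± 0.147 at 0.32 µM, 4.92% ± 1.98 at 0.63 µM and 4.13% ± 1.03 at 1.25 µM (SD, n = 3 each). At 48 h the share was 3.17%, 3.13% and 2.40% with 0.63 µM, against 3.15%, 2.93% and 2.36% in untreated cells, and the 2 sets of libraries overlapped almost fully. The means there were 2.90% ± 0.435 with 0.63 µM and 2.81% ± 0.412 in untreated cells (SD, n = 3 each). The 2 rRNAs took 1.49% ± 0.496 of TPM in untreated cells at 24 h, 2.15% ± 0.0342 at 0.32 µM, 1.63% ± 0.565 at 0.63 µM and 1.57% ± 0.345 at 1.25 µM. At 48 h they took 1.84% ± 0.164 with 0.63 µM and 1.80% ± 0.200 in untreated cells.

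**Figure D1:**
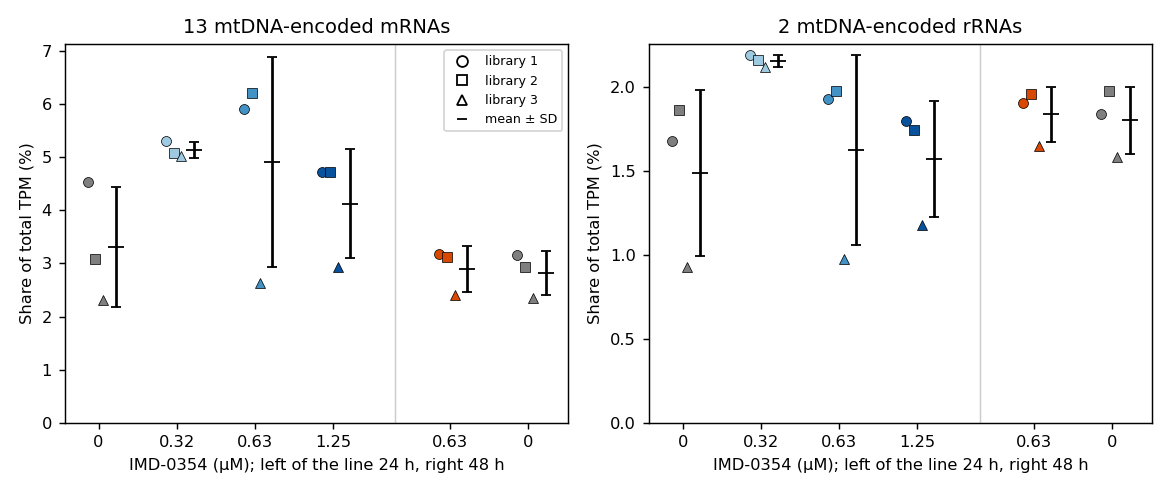
Share of all TPM (%, linear axis from 0) held by the 13 mtDNA mRNAs (left) and the 2 mtDNA rRNAs (right), by IMD-0354 dose in µM, with 24 h left of the vertical line and 48 h right of it. Symbols are single libraries by number and bars are mean ± SD of 3. Library 3 (triangles) is the lowest of its group in all 6 groups, and the libraries at 0.32 µM lie close together, from 5.02% to 5.30% for the mRNAs.

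All 22 tRNA rows were at 0 in all 18 libraries. The tRNAs lack the poly(A) tail on which the method primes, and nothing can be said here of their levels. The other 15 members passed the filter on low values (at least 1 TPM in at least 3 libraries); each was tested with limma on log2(TPM + 1), with p-values adjusted over all 14936 rows by the Benjamini-Hochberg method and calls made at an adjusted p under 0.05. Differences below are on that log2 scale, dose minus untreated of the same time, with their standard error (SE).

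Calls were made for 4 of the mtDNA mRNAs, MT-CO1, MT-CO2, MT-ND4 and MT-ND4L, and the doses were not tested against each other. At 0.32 µM no member was called, against 0.0067% of all rows called higher and 0.0201% called lower. At 0.63 µM MT-CO2, MT-ND4 and MT-ND4L rose, against 1.36% of all rows called higher and 0.824% called lower. At 1.25 µM MT-CO1, MT-ND4 and MT-ND4L rose, against 4.94% called higher and 6.36% called lower. At 48 h, 0.63 µM raised MT-CO1 and MT-ND4L, against 1.95% called higher and 5.68% called lower. A linear trend over dose at 24 h was called for MT-CO1, MT-ND4 and MT-ND4L, all upward, against 6.68% of rows called upward and 7.99% downward. No member was called lower in these 5 tests as fitted to all 18 libraries without a block, neither rRNA was called, and the 3 comparisons at 24 h share their untreated libraries.

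MT-CO1, the catalytic subunit of complex IV, was at 945, 612 and 384 TPM in untreated cells at 24 h, at 1023, 1094 and 1007 TPM with 0.32 µM, at 1044, 1214 and 595 TPM with 0.63 µM, and at 2259, 2276 and 1579 TPM with 1.25 µM. The 1.25 µM libraries lay above all others at 24 h, while those at 0.63 µM overlapped the untreated ones. MT-CO1 rose at 1.25 µM by 1.73 ± 0.29 (SE; limma adjusted p = 0.00121), and its trend over dose was 1.27 ± 0.22 per µM (limma adjusted p = 0.00118). At 0.32 and 0.63 µM the differences were 0.78 and 0.59, with limma adjusted p of 0.771 and 0.297. Leaving out any single library kept the call at 1.25 µM. A fit of these 2 groups alone did not keep it (adjusted p = 0.0861).

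At 48 h MT-CO1 was at 1404, 1349 and 1225 TPM with 0.63 µM, against 739, 774 and 529 TPM in untreated cells. The lowest treated library was well above the highest untreated one. The difference was 0.98 ± 0.29 (SE; limma adjusted p = 0.0471), and leaving out a single library kept the call in 6 of 18 cases, with adjusted p up to 0.166 (difference 0.81) without untreated library 3.

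MT-ND4L, a small membrane subunit of complex I, had a higher mean at each higher dose and the smallest within-group spread of the 15 members. It was at 2166, 1248 and 1474 TPM in untreated cells at 24 h, at 2043, 2314 and 2009 TPM with 0.32 µM, at 3116, 2908 and 2417 TPM with 0.63 µM, and at 4143, 4081 and 3122 TPM with 1.25 µM. The libraries at 0.63 and at 1.25 µM all lay above the untreated ones, and those of 1.25 µM above those of 0.63 µM. MT-ND4L rose by 0.82 ± 0.17 at 0.63 µM (SE; limma adjusted p = 0.0262) and by 1.24 ± 0.17 at 1.25 µM (limma adjusted p = 0.000305), with a trend of 0.98 ± 0.13 per µM (limma adjusted p = 0.000158). At 0.32 µM it differed by 0.42 (limma adjusted p = 0.777).

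At 48 h MT-ND4L was at 2734, 2766 and 2374 TPM with 0.63 µM, against 1466, 1279 and 1429.8 TPM in untreated cells. The groups did not overlap, and MT-ND4L rose by 0.91 ± 0.17 (SE; limma adjusted p = 0.00409). This call and the trend over dose held under all 31 alternatives run. The call at 1.25 µM held under 30 of 31, the exception being the fit of these 2 groups alone (adjusted p = 0.0859). No alternative changed how reads of the joint mRNA were divided between MT-ND4L and MT-ND4. The ratio of MT-ND4 to MT-ND4L was 0.846 ± 0.213 in untreated cells at 24 h. In order of dose it was 1.22 ± 0.121, 1.65 ± 0.681 and 0.814 ± 0.165 (SD, n = 3 each). The 2 rows thus did not move together, and the level of MT-ND4L is uncertain to that extent.

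MT-ND4, which follows MT-ND4L on the joint mRNA and encodes a proton-pumping subunit of complex I, had its highest mean at 0.63 µM. It was at 2141, 1183 and 887 TPM in untreated cells at 24 h, at 2591, 2502 and 2628 TPM with 0.32 µM, at 5821, 6360.0 and 2129 TPM with 0.63 µM, and at 3619.9, 3838 and 1958 TPM with 1.25 µM. Libraries 1 and 2 at 0.63 µM were the highest of all, while library 3 of that dose fell just under untreated library 1, so those groups overlapped. The difference was 1.71 ± 0.36 at 0.63 µM (SE; limma adjusted p = 0.0262) and 1.20 ± 0.36 at 1.25 µM (limma adjusted p = 0.0425), with a trend of 0.88 ± 0.28 per µM (limma adjusted p = 0.0423). Without library 3 of the untreated, 0.63 and 1.25 µM groups, the differences were 1.93 and 1.23. These libraries were left out after seeing that they were the lowest for the mtDNA transcripts, which narrows the spread by construction, so no p is given. Leaving out a single library kept the call at 1.25 µM, and that of the trend, in 6 of 18 cases each, with adjusted p up to 0.143 (difference 1.02) at 1.25 µM without its library 2.

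At 48 h MT-ND4 was at 3369.6, 3283 and 2629 TPM with 0.63 µM, against 1651, 1581 and 1564 TPM in untreated cells. The groups were far apart, yet the difference of 0.94 ± 0.36 (SE) was not called (limma adjusted p = 0.135), with an SE that is pooled over all 6 groups. The within-group SD of MT-ND4 over all 18 libraries was 0.50 on the log2 scale.

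MT-CO2, which carries the copper site of complex IV that accepts electrons from cytochrome c, was at 2237, 751 and 1308 TPM in untreated cells at 24 h, at 2781, 2963 and 2739 TPM with 0.32 µM, at 4064, 4418 and 2612 TPM with 0.63 µM, and at 2801, 3075 and 1545 TPM with 1.25 µM. The 0.32 and 0.63 µM libraries lay above the untreated ones, and the 1.25 µM libraries overlapped them. MT-CO2 rose by 1.47 ± 0.32 at 0.63 µM (SE; limma adjusted p = 0.0276), and differed by 1.12 at 0.32 µM (limma adjusted p = 0.599) and by 0.87 at 1.25 µM (limma adjusted p = 0.0912). At 48 h it was at 2553, 2756 and 2067 TPM with 0.63 µM, against 1820.4, 1968 and 1679.5 TPM in untreated cells, without overlap and with a difference of 0.42 (limma adjusted p = 0.497).

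**Figure D2:**
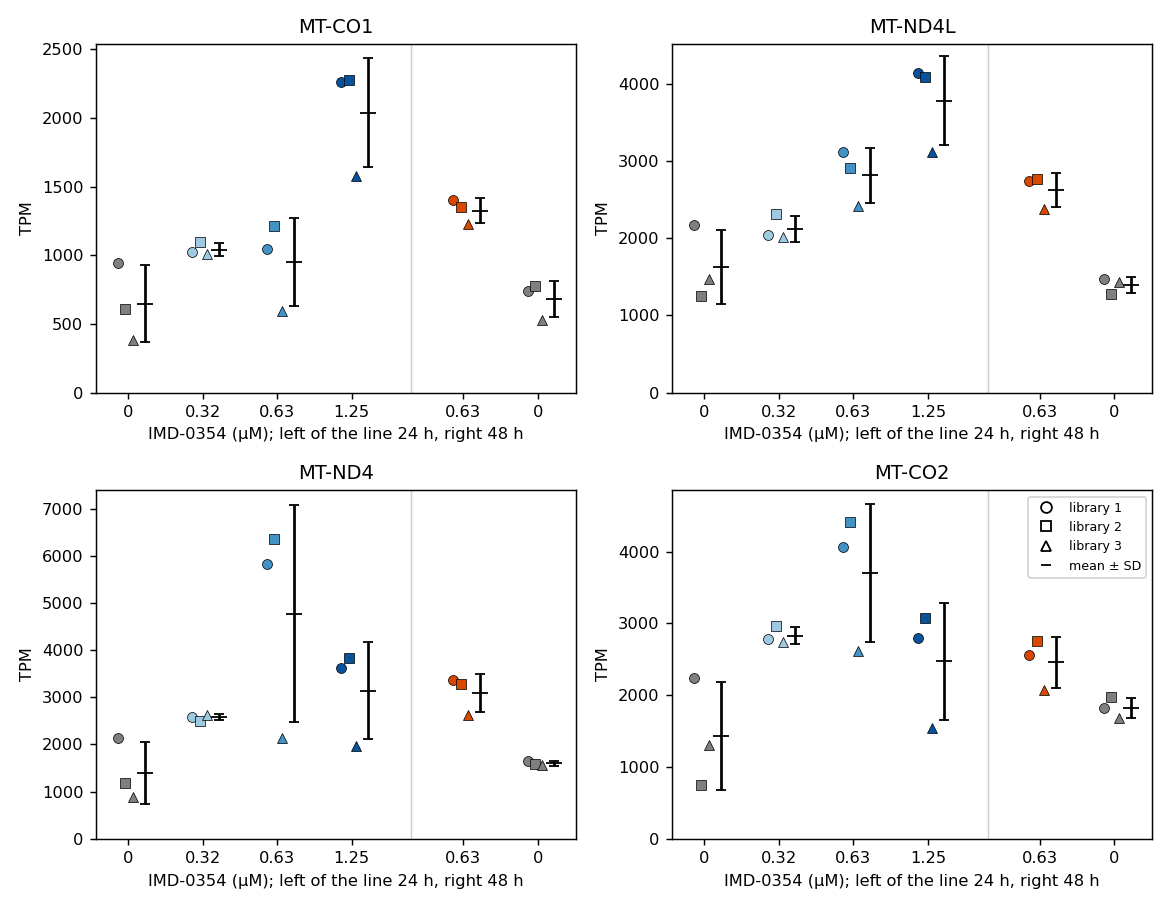
TPM (linear axis from 0) of MT-CO1, MT-ND4L, MT-ND4 and MT-CO2 in each library by IMD-0354 dose in µM, with 24 h left of the vertical line and 48 h right of it; bars are mean ± SD of 3 libraries. MT-CO1 stands apart at 1.25 µM (1579 to 2276 TPM), MT-ND4L is higher at each dose step from 0.32 µM, and MT-ND4 is highest in libraries 1 and 2 at 0.63 µM.

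The 3 calls at 0.63 µM and 24 h rested on few libraries. All 3 were lost without untreated library 2 (adjusted p 0.0766 to 0.0826), without 0.63 µM library 1 (0.0759 to 0.0832) and without 0.63 µM library 2 (0.068 to 0.0822). Without untreated library 2 the MT-CO2 difference was 1.08, that of MT-ND4 1.64 and that of MT-ND4L 0.65. MT-ND4 was also lost without untreated library 3 (1.43, limma adjusted p = 0.0539), and MT-ND4L without 0.63 µM library 3 (0.92, limma adjusted p = 0.0554). At 1.25 µM the number of members called was 6 without untreated library 1 and 5 without 0.63 µM library 3, and the trend was called for 5 members without untreated library 1. The members added there were MT-ND1, MT-ATP6 and MT-CO2, each of them higher. The share of all rows called in these refits is not given here, so the larger counts are not read as particular to the members. MT-ND6 was called lower at 1.25 µM without untreated library 3 (-1.56, limma adjusted p = 0.0142). That library held its lowest untreated value, so a larger difference and a smaller spread were built in, and no weight is put on this call.

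None of the other complex I mRNAs was called in a dose comparison. MT-ND1, a subunit near the quinone site, was at 1927, 2035 and 1614 TPM with 1.25 µM, against 1538, 802 and 612 TPM in untreated cells at 24 h. The 1.25 µM libraries were the higher ones without overlap, the difference of 1.02 ± 0.33 (SE) was not called (limma adjusted p = 0.0556), and with its nuclear copy MTND1P23 added the groups overlapped. MT-ND3 was at 6137, 6043 and 2998 TPM with 1.25 µM, against 8573, 6552 and 5709 TPM in untreated cells, a difference of -0.51 (limma adjusted p = 0.218) between groups that overlapped. At 48 h MT-ND3 was at 4559.7, 4589 and 3521 TPM with 0.63 µM, against 6598, 5583 and 4961 TPM in untreated cells, and was the sole member lower without overlap (-0.44, limma adjusted p = 0.351). MT-ND2 and MT-ND5, also of the membrane arm, differed from untreated cells by -0.13 to 0.45 and by -0.08 to 0.45 over the 4 dose comparisons, with limma adjusted p of at least 0.652.

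MT-ND6 is the only mRNA encoded on the minus strand, whose transcription starts from a promoter of its own. It was at 533, 498 and 210.4 TPM with 1.25 µM, against 961, 1326 and 339 TPM in untreated cells at 24 h, and the groups overlapped through library 3 of the untreated cells. The difference was -0.98 ± 0.43 (SE; limma adjusted p = 0.161), and -1.13 without library 3 of the untreated, 0.63 and 1.25 µM groups, a set chosen after seeing these values and given with no test. At 0.32 and 0.63 µM the 24 h differences were 0.21 and -0.05. At 48 h MT-ND6 was at 486, 478 and 471 TPM with 0.63 µM, against 506, 454 and 367 TPM in untreated cells (0.12, limma adjusted p = 0.917). The ratio of MT-ND6 to MT-ND5, its neighbour on the other strand, was 0.670, 0.648 and 0.444 with 1.25 µM, against 0.996, 1.27 and 1.01 in untreated cells at 24 h, and the 2 sets did not overlap. At 48 h the ratio was 0.514, 0.540 and 0.656 with 0.63 µM, against 0.704, 0.674 and 0.638 in untreated cells. These sets overlapped, and untreated cells at 48 h were within or just above the range of 1.25 µM at 24 h. MT-ND6 adjoins MT-ND5, which ends at chrM:14148, and the sources used here do not say whether the counting used strand. Reads of the 2 rows may therefore not be fully separated. The capture of MT-ND6 by the method was not tested, so its level and this ratio are uncertain.

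MT-CYB, the cytochrome b subunit of complex III, was at 1109.7, 1237 and 865 TPM with 1.25 µM, against 956, 873 and 392 TPM in untreated cells (0.62, limma adjusted p = 0.259). MT-CO3, the third core subunit of complex IV, was at 5110.3, 5837 and 5239 TPM with 0.32 µM, against 4474, 2512 and 1950.0 TPM in untreated cells, a difference of 0.94 (limma adjusted p = 0.771) without overlap. At 48 h MT-CO3 differed by -0.43 (limma adjusted p = 0.555). Neither mRNA was called at any dose.

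Of the ATP synthase pair, MT-ATP6 was at 4569.6, 2432 and 2495 TPM in untreated cells at 24 h, at 6865, 6587 and 6348 TPM with 0.32 µM, at 7682, 8371 and 3251 TPM with 0.63 µM and at 5965, 6359 and 3968 TPM with 1.25 µM. All 3 libraries at 0.32 µM were above the untreated range, and library 3 of the higher doses was inside it. The differences were 1.12, 0.97 and 0.81 in order of dose, with limma adjusted p of 0.600, 0.123 and 0.118. Without 0.63 µM library 3 the difference at 0.63 µM was 1.41 (limma adjusted p = 0.0451). That library was the lowest of its dose, so leaving it out raises the difference and narrows the spread by construction. MT-ATP8, which shares its end with the start of MT-ATP6, differed by 0.81, 0.10 and 0.08 at the same doses and had the largest within-group SD of the members, 0.63 on the log2 scale. At 0.63 µM it was at 2446 TPM in library 3, against 10906 and 10966 TPM in libraries 1 and 2. Its reads cannot be told apart from those of a joint mRNA at the 46 shared bases.

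**Figure D3:**
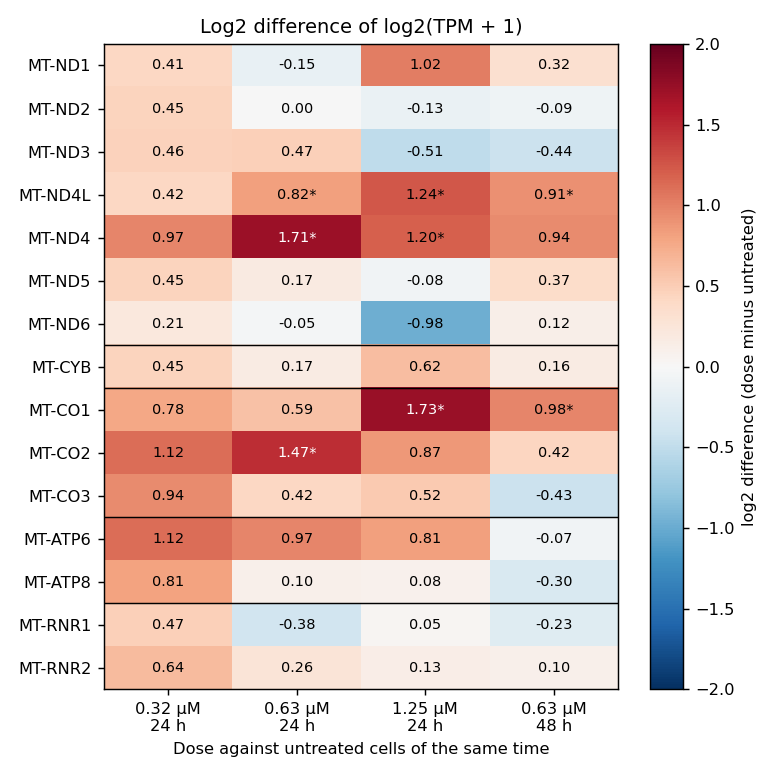
Difference of log2(TPM + 1), dose minus untreated cells of the same time, for the 13 mtDNA mRNAs and 2 rRNAs (rows) in the 4 dose comparisons (columns), with the value printed in each cell, colour by sign and size and an asterisk where limma made a call. MT-CO1, MT-ND4 and MT-ND4L are among the rows positive in all 4 columns, and MT-ND6 and MT-ND3 are negative at 1.25 µM (-0.98 and -0.51).

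At 0.32 µM the differences of all 13 mRNAs were positive on the log2 scale, with a median of 0.46 (range 0.21 to 1.12), against a median of 0 over all rows tested. Of the 15 members 8 were higher without overlap between the groups and none lower, against 4.08% of all rows higher and 4.59% lower without overlap. MT-ND6 had the same mean TPM, 876, in both groups. None passed (lowest limma adjusted p 0.599), 7 had an unadjusted limma p under 0.05, as did 912 of all rows, and the count of calls stayed 0 in all 31 alternatives. The median was 0.36 without untreated library 3 and 0.79 without untreated library 1.

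At the higher doses the differences ranged more widely. At 0.63 µM 10 of 13 mRNAs were positive (median 0.42, range -0.15 to 1.71), and 2 members were higher and none lower without overlap, against 10% and 9.26% of all rows. At 1.25 µM 9 of 13 were positive (median 0.62, range -0.98 to 1.73), and 3 were higher and none lower without overlap, against 12.4% and 13.7% of all rows. At 48 h 8 of 13 were positive (median 0.16, range -0.44 to 0.98, against a median of -0.15 over all rows), and 6 members were higher and 1 lower without overlap, against 9.23% and 21.3% of all rows.

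The effect of 0.63 µM at 48 h minus that at 24 h was called for no member with limma, against 0.0335% of all rows in either direction. An unadjusted p under 0.05 was found for 3 of 15 members and for 1784 of all rows. These were MT-CO2 (-1.05), MT-ATP6 (-1.04) and MT-ND3 (-0.91), each lower at 48 h relative to 24 h, with limma adjusted p of 0.363, 0.377 and 0.321. MT-ND4L differed between the times by 0.10 ± 0.25 (SE) and MT-CO1 by 0.39 ± 0.40. Untreated cells at 48 h against untreated cells at 24 h gave no call among the members with limma, against 0.0134% of all rows. MT-ND1 alone had an unadjusted p under 0.05 there (-0.72), as did 1181 of all rows.

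Within each library the total of the 13 mRNAs cancels, so the proportion of an mRNA in their pooled TPM can be compared between groups. These proportions are given as descriptions. Division by gene length raises short genes such as MT-ATP8 (207 bases) and MT-ND3 (346 bases) over MT-CO1 (1542 bases). Proportions of different mRNAs are therefore not their relative amounts. MT-CO1 made up 4.99% ± 0.326 of the pool with 1.25 µM, against 1.91% ± 0.215 in untreated cells at 24 h, while with 0.32 and 0.63 µM it made up 2.03% ± 0.113 and 1.99% ± 0.247 (SD, n = 3 each). At 48 h it made up 4.62% ± 0.431 with 0.63 µM, against 2.41% ± 0.205 in untreated cells. Library 3 had the highest MT-CO1 proportion of its group at 1.25 µM, 5.37%, and the lowest in untreated cells at 24 h, 1.67%, and at 48 h, 2.25%.

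MT-ND4 made up 4.13% ± 0.508 of the pool in untreated cells at 24 h, 5.02% ± 0.190 with 0.32 µM, 9.39% ± 1.16 with 0.63 µM and 7.49% ± 0.756 with 1.25 µM. None of these dose groups overlapped with untreated cells, with 0.32 µM the closest (4.89% to 5.23%, against 3.83% to 4.72%). At 48 h it made up 10.7% ± 0.244 with 0.63 µM, against 5.76% ± 0.770 in untreated cells. MT-ND4L made up 5.07% ± 1.21 in untreated cells at 24 h, 4.14% ± 0.369 with 0.32 µM, 6.37% ± 2.43 with 0.63 µM and 9.35% ± 1.10 with 1.25 µM. The groups at 0.32 and 0.63 µM overlapped with untreated cells and that at 1.25 µM did not. With 0.63 µM at 48 h it made up 9.12% ± 0.684, against 5.03% ± 0.915 in untreated cells. MT-CO2 made up 4.35% ± 1.70 in untreated cells at 24 h and 5.51% ± 0.297 with 0.32 µM. With 0.63 and 1.25 µM it made up 7.97% ± 1.68 and 5.90% ± 0.634, and only 0.63 µM did not overlap with untreated cells. At 48 h MT-CO2 made up 8.49% ± 0.395 with 0.63 µM, against 6.54% ± 0.694 in untreated cells, without overlap.

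Among the mRNAs with large proportions on this scale MT-ND3 and MT-ND2 made up a smaller proportion and MT-ATP6 a larger one at 1.25 µM. MT-ND3 made up 12.005% ± 1.57 of the pool with 1.25 µM, against 21.6% ± 2.97 in untreated cells at 24 h, and 14.6% ± 0.175 with 0.63 µM at 48 h, against 20.3% ± 1.13 in untreated cells. MT-ATP8 made up 13.5% ± 1.04 with 0.63 µM at 48 h, against 17.1% ± 0.875 in untreated cells, and MT-CO3 8.09% ± 0.739, against 11.2% ± 1.10. None of these 4 pairs of groups overlapped. At 24 h MT-CO3 made up 8.81% ± 0.917 in untreated cells, 10.5% ± 0.927 with 0.32 µM, 8.20% ± 1.09 with 0.63 µM and 9.99% ± 0.817 with 1.25 µM, with overlap at each dose. MT-ATP6 made up 9.59% ± 1.53 in untreated cells at 24 h, 12.9% ± 0.183 with 0.32 µM, 12.9% ± 0.590 with 0.63 µM and 13.2% ± 0.490 with 1.25 µM, and no dose overlapped with untreated cells. The ratio of MT-CO1 to MT-ND3 was 0.368, 0.377 and 0.527 with 1.25 µM, against 0.110, 0.0934 and 0.0674 in untreated cells at 24 h, and at 48 h 0.308, 0.294 and 0.348 with 0.63 µM, against 0.112, 0.139 and 0.107 in untreated cells. Both sets lay far apart, while the 24 h ratios at 0.32 and 0.63 µM, 0.0885 to 0.117 together, overlapped those of untreated cells. As proportions of a fixed total, these values show unequal change and do not show which mRNA moved.

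**Figure D4:**
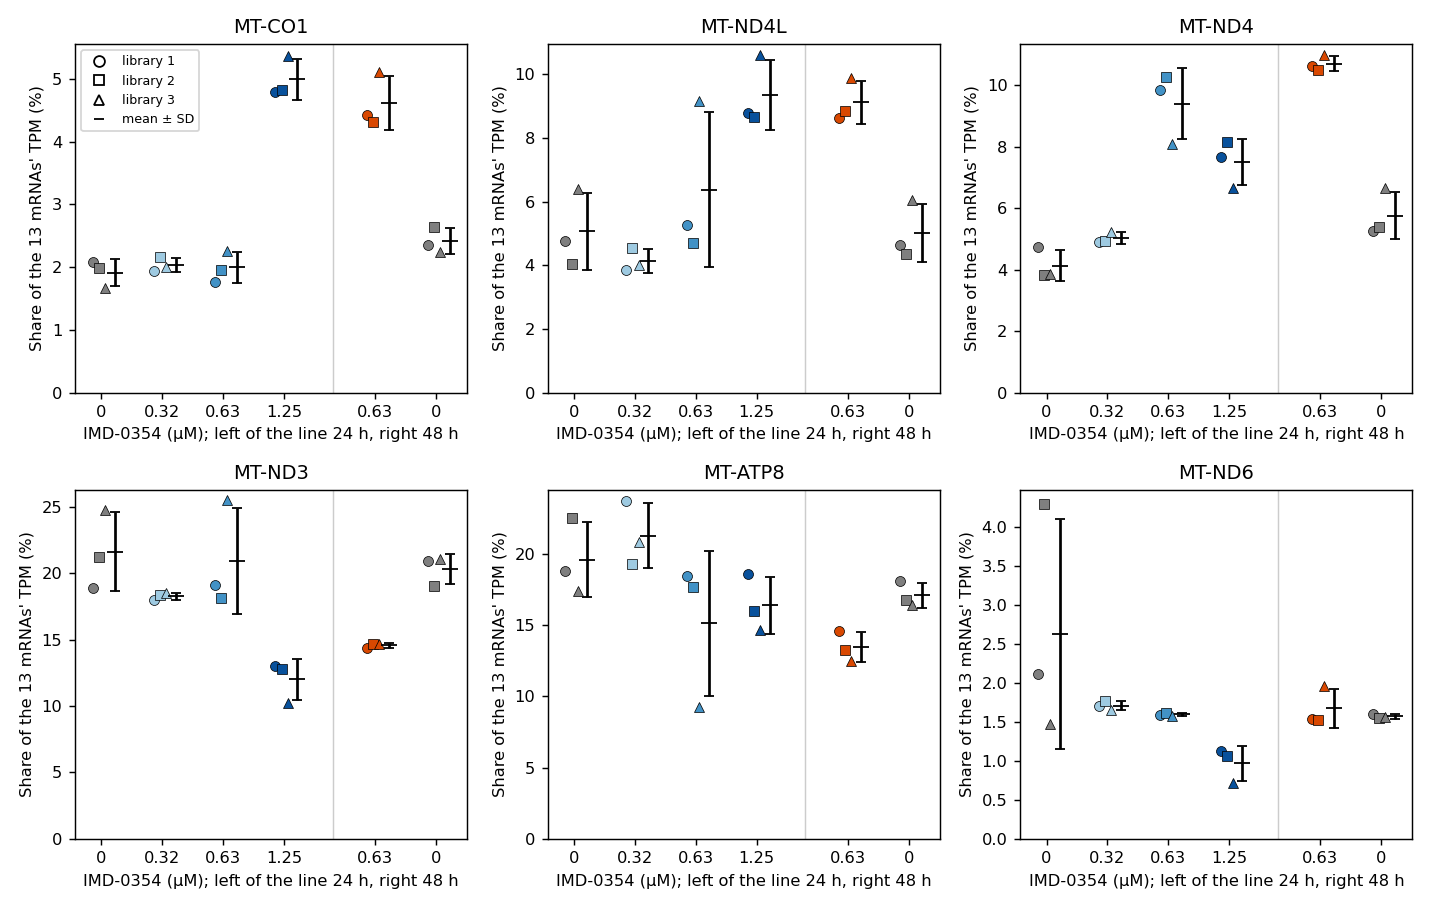
Share of the summed TPM of the 13 mtDNA mRNAs (%, linear axis from 0) held by MT-CO1, MT-ND4L, MT-ND4, MT-ND3, MT-ATP8 and MT-ND6 in each library, by IMD-0354 dose in µM, with 24 h left of the vertical line and 48 h right of it; bars are mean ± SD of 3 libraries. MT-CO1 is near 2% in the untreated, 0.32 and 0.63 µM libraries at 24 h, and near 5% with 1.25 µM and with 0.63 µM at 48 h.

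Neither rRNA was called in any comparison. MT-RNR2 was at 12027, 14381 and 7024 TPM in untreated cells at 24 h, at 16558, 16985 and 16362 TPM with 0.32 µM, at 15824, 16482 and 7964 TPM with 0.63 µM and at 14143, 13879 and 8137 TPM with 1.25 µM. MT-RNR1 was at 4742, 4209 and 2217 TPM in untreated cells, at 5296, 4602 and 4814 TPM with 0.32 µM, at 3440.2, 3279 and 1768 TPM with 0.63 µM and at 3794, 3565 and 3601 TPM with 1.25 µM. Over the 4 dose comparisons the differences were 0.10 to 0.64 for MT-RNR2 and -0.38 to 0.47 for MT-RNR1, with limma adjusted p of at least 0.466. The largest of them were at 0.32 µM, where MT-RNR2 was higher without overlap. The summed TPM of the rRNAs over that of the mRNAs was 0.412 to 0.425 with 0.32 µM, 0.319 to 0.369 with 0.63 µM and 0.370 to 0.399 with 1.25 µM, against 0.369 to 0.601 in untreated cells at 24 h. The same ratio at 48 h was 0.600 to 0.688 with 0.63 µM, against 0.583 to 0.674 in untreated cells. At 24 h only the 0.63 µM libraries lay outside the untreated range, just under it, and at 48 h library 3 with 0.63 µM lay just above it. The ratio of MT-RNR2 to MT-RNR1 was 4.60, 5.03 and 4.51 with 0.63 µM at 24 h, against 2.54, 3.42 and 3.17 in untreated cells, and 4.11, 4.45 and 3.72 with 0.63 µM at 48 h, against 3.03, 3.15 and 3.51 in untreated cells. Both sets of ratios were higher with 0.63 µM without overlap, while at 1.25 µM the ratio of 3.73, 3.89 and 2.26 overlapped that of untreated cells. Both rRNAs carry at most short A tails, and their capture by the method relative to the mRNAs was not tested.

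Libraries of the same group differed in the mtDNA transcripts by more than the median of other abundant transcripts. The within-group SD of log2(TPM + 1) was 0.22 for MT-ND4L, the lowest, 0.44 at the median of the 15 members and 0.63 for MT-ATP8, the highest. Among 217 other rows with a mean of at least 500 TPM the median was 0.20, the lowest 0.06 and the highest 2.702, above that of any member. Library 3 was below its group mean for 15 of 15 members with 0.63 µM at 24 h, 15 with 1.25 µM, 14 of the untreated cells at 24 h and 12 with 0.32 µM. At 48 h it was below for 15 with 0.63 µM and 14 of the untreated cells.

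The size of this deviation differed between groups. The median over the 15 members for library 3 was -0.59 in untreated cells at 24 h, -0.04 with 0.32 µM, -0.84 with 0.63 µM and -0.42 with 1.25 µM. At 48 h it was -0.23 with 0.63 µM and -0.25 in untreated cells. The largest single deviation was that of MT-ATP8 in library 3 at 0.63 µM and 24 h, -1.44, at 2446 TPM, against 10906 and 10966 TPM in libraries 1 and 2 of the same dose. The labels do not say what the number marks. The part of this deviation in the differences between groups was not tested beyond the values given with and without these libraries.

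**Figure D5:**
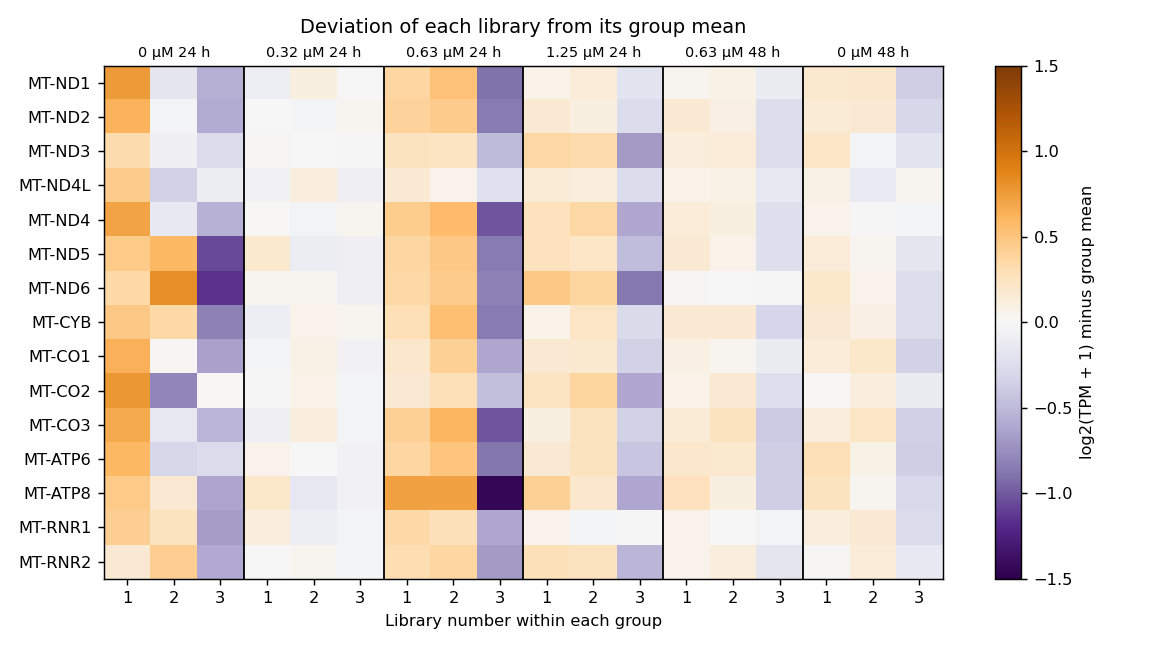
Deviation of each library from its group mean in log2(TPM + 1) (colour) for the 13 mtDNA mRNAs and 2 rRNAs (rows), with the 18 libraries in columns by group and library number. Library 3 is below its group mean for 12 to 15 of the 15 members in every group, most strongly at 0.63 µM and 24 h (median -0.84), and the 0.32 µM libraries differ little.

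Nuclear copies of mtDNA can share reads with the mitochondrial genes. The table held 391 rows of such pseudogenes by symbol, of which 34 were above 0 in any library and 10 passed the filter. The most abundant was MTND1P23, whose 352 aligned bases are 99.15% identical to MT-ND1 and which reached 2211 TPM. It was at 601, 463 and 95.0 TPM with 1.25 µM, against 1361, 990.2 and 295 TPM in untreated cells at 24 h (-1.30, limma adjusted p = 0.247). Added to MT-ND1 it gave 2528, 2498 and 1709 TPM with 1.25 µM, against 2899, 1792 and 908 TPM in untreated cells. These sums overlapped, whereas the values of MT-ND1 alone did not. MTATP6P1 is 98.53% identical to MT-ATP6 and was at 523, 642 and 437 TPM with 1.25 µM, against 193, 137 and 103 TPM in untreated cells, higher by 1.91 ± 0.33 (SE; limma adjusted p = 0.00158). Its groups did not overlap, whereas those of MT-ATP6 did. MTND2P28, 98.37% identical to MT-ND2, was at 25.9, 25.4 and 24.8 TPM with 0.63 µM at 48 h, against 12.4, 10.6 and 2.63 TPM in untreated cells (1.67, limma adjusted p = 0.0250). MTATP8P1, 97.58% identical to MT-ATP8, was listed at 0 in the 3 libraries with 1.25 µM, against 2.12, 7.17 and 4.05 TPM in untreated cells at 24 h (-2.34, limma adjusted p = 0.00508). This row is near the floor. It was also at 0 in every library with 0.32 µM, where the same difference was not called (limma adjusted p = 0.194), and with 0.63 µM at 48 h. Outside untreated cells at 24 h it was at most 2.27 TPM. How reads were divided between a copy and its source is not given in the sources used here, so the levels of these rows, and of MT-ND1 and MT-ATP6 beside them, are uncertain. Adding all copies to the mRNAs moved no group's share by more than 0.189 percentage points of TPM.

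Few of the nuclear genes that maintain, transcribe, process and translate mtDNA transcripts were called. Of 20 genes of mtDNA transcription and replication, all measured, none was called at 0.32 or 0.63 µM at 24 h, and 2 of 20 rose and none fell at 1.25 µM, where 4.94% of all rows were called higher and 6.36% lower, with a list median of 0.04 (11 positive, 9 negative) against -0.01 over all rows. TFB2M, the factor that opens the mtDNA promoter for POLRMT, was at 16.1, 19.8 and 13.01 TPM with 1.25 µM, against 5.55, 0.54 and 10.1 TPM in untreated cells, higher by 1.82 ± 0.51 (SE; limma adjusted p = 0.0304). Untreated library 2 was far lower than the other libraries, and without it the difference was 1.00 (limma adjusted p = 0.0899); the call was also lost without any of the 1.25 µM libraries (adjusted p 0.0592 to 0.0957). POLG2, the accessory subunit of the mtDNA polymerase, was at 19.1, 35.0 and 18.6 TPM with 1.25 µM, against 12.1, 7.99 and 9.21 TPM in untreated cells, higher by 1.19 ± 0.30 (SE; limma adjusted p = 0.0176). Its call was lost without untreated library 2 (1.07, limma adjusted p = 0.0595) and without 1.25 µM library 2 (0.90, limma adjusted p = 0.0856).

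At 48 h 1 gene of that list rose and 2 fell, where 1.95% of all rows were called higher and 5.68% lower. The list median was -0.33 (4 positive, 16 negative), against -0.15 over all rows. POLG2 was at 21.3, 22.4 and 19.5 TPM with 0.63 µM, against 12.5, 9.59 and 7.95 TPM in untreated cells (1.02, limma adjusted p = 0.0481). The nucleases MGME1, which trims replication intermediates of mtDNA, and DNA2 fell, MGME1 by 0.93 (limma adjusted p = 0.0408) and DNA2 by 1.69 (limma adjusted p = 0.0420). DNA2 was low, at 3.38, 1.52 and 0.57 TPM with 0.63 µM, against 4.94, 8.64 and 9.11 TPM in untreated cells. These calls held in 14 (POLG2), 19 (MGME1) and 17 (DNA2) of 31 alternatives.

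Of 30 genes of mitochondrial RNA processing and stability, none was called in the 3 dose comparisons at 24 h. At 1.25 µM 24 of them were negative and 6 positive, with a list median of -0.19 against -0.01 over all rows. At 48 h 2 of 30 fell and none rose, again with 24 negative and 6 positive, and the list median was -0.34 against -0.15 over all rows. The shares of all rows called are those given for the first list. TRMT10C, a subunit of the enzyme that cuts the 5′ ends of mitochondrial tRNAs, was at 24.5, 27.1 and 20.4 TPM with 0.63 µM, against 44.5, 34.8 and 38.1 TPM in untreated cells (-0.69, limma adjusted p = 0.0340). MRM3, which methylates MT-RNR2, was at 3.63, 4.26 and 3.63 TPM with 0.63 µM, against 9.43, 7.97 and 7.77 TPM in untreated cells (-0.95, limma adjusted p = 0.0211). Over dose at 24 h 2 of 30 trends were called downward and none upward, where 7.99% of all rows were called downward and 6.68% upward. ELAC2, which cuts the 3′ ends of tRNAs, and PNPT1, a mitochondrial RNA-degrading enzyme, had downward trends of -0.57 (limma adjusted p = 0.0462) and -0.56 (limma adjusted p = 0.0248) per µM. In the other lists the trend was called upward for 2 of 20 genes (TFB2M and POLG2) and for 1 of 16 translation factors (MTRF1). Of 31 alternatives the calls held in 22 for TRMT10C, 26 for MRM3, 10 for ELAC2 and 25 for PNPT1. LRPPRC, a stabiliser of mtDNA mRNAs, was at 42.4 ± 8.69 TPM with 1.25 µM and 40.9 ± 1.43 TPM in untreated cells (SD, n = 3 each).

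Of 16 mitochondrial translation factors 1 rose at 1.25 µM, where 4.94% of all rows were called higher, and none was called at 0.32 µM, at 0.63 µM or at 48 h. It was MTRF1, a mitochondrial release factor reported to act at stop codons that are not standard, AGA in MT-CO1 and AGG in MT-ND6. At 1.25 µM MT-CO1 was called higher (1.73), MT-ND6 was not called (-0.98), and a link of either to MTRF1 was not tested. MTRF1 was at 9.97, 10.9 and 3.68 TPM with 1.25 µM, against 1.65, 2.72 and 1.78 TPM in untreated cells, without overlap, and was higher by 1.49 ± 0.35 (SE; limma adjusted p = 0.0113). Without 1.25 µM library 2 the difference was 1.25 (limma adjusted p = 0.0553). Of 9 regulators of mitochondrial biogenesis 8 were measured and none was called in any comparison.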

How the data were processed

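Total RNA of A375 cells was made into 18 QuantSeq 3′ FWD libraries, per the labels' protocols. The tools named in the submitters' processing notes, without their roles, are cutadapt 1.18, STAR 2.7, DESeq2 and RSEM 1.3.1; build, annotation and use of strand are not given there. The values deposited by the authors are TPM per gene without counts, so no count test could be made, the depth per library and the precision it gives are unknown, and the 3 libraries of a group limit precision. TPM divides by gene length although a 3′ method yields about 1 tag per transcript, which raises short genes over long ones; levels of different genes are compared only on that scale.

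Symbols were looked up by Ensembl identifier (56558 rows matched), and coordinates and sequences were taken from GENCODE release 29 (GRCh38), which matched 37 of 37 members. From the deposited TPM, log2(TPM + 1) was computed for 14936 rows with at least 1 TPM in at least 3 libraries. Limma 3.58.1 in R 4.3.3 fitted a mean per group to all 18 libraries (12 residual degrees of freedom) with a mean-variance trend, 2-sided tests and Benjamini-Hochberg adjustment over all rows. On simulated data for 1.25 µM at 24 h with 14936 genes, 41% of changes of 1 and 80% of changes of 2 (log2) were recovered, with 3 false among 124 calls. There each library was drawn independently, with the same SD in every group, and all changes were upward. A deviation shared by many members, as in library 3, was not simulated, so these rates may not hold for the members. Alternatives were 2 pseudocounts (0.1 and 5 TPM), 2 filters, 3 scalings, no trend, a robust prior, only the groups compared, the replicate block and each library left out; 2 further sets of libraries were left out after seeing the data. All 13 mRNAs and both rRNAs are named, with up to 4 members per nuclear list that passed, largest change first, a few uncalled genes such as LRPPRC being named after their values were seen. The members, the lists and the tests were chosen with earlier results of these data known. No p is given for shares, proportions or ratios.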

Additional observations from a re-analysis of the deposited data

How the results depend on the processing

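The trend over dose of MT-CO1 and MT-ND4L and the rise of MT-ND4L at 48 h kept their call in all 31 alternatives, and no called difference changed sign. None of the alternatives bears on the split of reads between MT-ND4L and MT-ND4. At 0.63 µM and 24 h the number of members called, 3, became 0 with no filter on low values, 1 with no mean-variance trend, 0 with only the groups compared and 0 without untreated libraries 2 and 3. At 1.25 µM the number, 3, became 0 with only the groups compared and 1 without untreated libraries 2 and 3. At 48 h the number, 2, became 1 with no filter and 1 with no mean-variance trend. Leaving out untreated libraries 2 and 3 keeps 1 untreated library at 24 h, that with the highest mtDNA mRNA share, whose spread is assumed to be that of the other groups, so smaller differences follow from the choice. Without library 3 of the untreated, 0.63 and 1.25 µM groups at 24 h, the trend was called for 5 members (4 upward, 1 downward) and 1 member was lower in untreated cells at 48 than at 24 h; these were the lowest libraries for the same members, so a smaller spread was built in. With 1 library left out the number called ranged from 0 to 0 at 0.32 µM, 0 to 3 at 0.63 µM, 2 to 6 at 1.25 µM, 1 to 3 at 48 h and 2 to 5 for the trend, and from 0 to 0 for the difference of the 0.63 µM effects and for untreated cells at 48 against 24 h. The cause of these changes was not tested, beyond fewer libraries or more genes tested. The shares of all rows called under the alternatives are not given here, so these counts are not read as particular to the members. Median-of-ratios scaling moved the median of all rows at 48 h to 0.0006, against -0.15 as deposited, and that of the mRNAs to 0.37, against 0.16.

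Libraries that share a number were not taken as pairs, as the labels do not say what it marks. Over all 14936 rows the correlation of their deviations was -0.0927 to 0.115 (median 0.0261, 45 pairs). For libraries of different number it was -0.114 to 0.108 (median -0.0172, 90 pairs). Between the libraries numbered 3 it was 0.0481 to 0.115 outside the 0.32 µM group, and -0.0043 to 0.0307 where that group was involved. Library 3 was also the lowest for the mtDNA transcripts in 6 of 6 groups, and an effect shared by a number was not tested beyond the replicate block. With the replicate block the number called was 5 at 1.25 µM and 6 for the trend (4 upward; MT-ND3 and MT-ND6 downward, -0.50 and -0.87 per µM), and 4 at 0.63 µM and 24 h and 2 at 48 h. The share of all rows called with the block is not given here, so these counts are not read as particular to the members.

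The mRNA share was 4.80% in untreated cells at 24 h, 7.29% at 0.32 µM and 5.70% at 1.25 µM with the rRNAs added, and at 48 h 4.73% with 0.63 µM and 4.61% in untreated cells. Without the 4 chromosome 21 rows it was 4.06% in untreated cells at 24 h, 6.37% at 0.32 µM, 5.73% at 0.63 µM and 4.84% at 1.25 µM. Under the same setting it was, at 48 h, 3.79% with 0.63 µM and 3.67% in untreated cells. With nuclear copies added it was 3.42% in untreated cells at 24 h, 5.30% at 0.32 µM, 5.11% at 0.63 µM and 4.22% at 1.25 µM. Leaving out 1 library gave 2.698% to 3.82% in untreated cells at 24 h, 5.05% to 5.19% at 0.32 µM, 4.28% to 6.06% at 0.63 µM, 3.83% to 4.72% at 1.25 µM, and at 48 h 2.76% to 3.15% with 0.63 µM and 2.64% to 3.04% in untreated cells.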
